A study of Homo sapiens with 19 samples.

Results

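Gut-like epithelial cells were a minority population of stem cell-derived human liver organoids grown on ultra-low attachment (ULA) plates. They were chosen by their RNA counts, after cells under 500 detected genes or above 20% mitochondrial counts were removed. A gut-like cell held at least 3 unique molecular identifiers (UMIs, 1 per captured RNA molecule) of LGALS4, PHGR1, CDH17 and TSPAN8 together, making up at least 0.1% of its UMIs. A cell was left out when AFP, AMBP, AGT, FGB and SERPINA1, 5 hepatocyte genes, together reached both 5 UMIs and 0.3% of its UMIs. This selection found 846 gut-like cells among 34289 kept cells of the 5 ULA libraries, which held 38934 deposited barcodes. Over all 19 libraries of the series, 2547 of 120240 kept cells met the same criteria, 1701 of them in the 14 libraries from organoids grown on an orbital shaker.

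The series profiled organoids differentiated from human pluripotent stem cells with 10x Genomics 3′ single-cell RNA-seq (v3 chemistry), and its title places them as a model of inflammatory and fibrotic injury in fatty liver disease. All ULA organoids came from the wild-type WiCell line W01, an established stem cell line, and received no treatment. They were collected on day 21 (3 libraries) or day 34 (2 libraries) of the differentiation. Every library therefore rests on 1 cell line, and nothing in the labels says whether libraries came from separate differentiations, so p-values measure a spread between libraries that may be technical. Day 34 organoids received an extra wash and 10 more minutes in trypsin, which cannot be told apart from the day. The 5 ULA libraries held between 73799160 and 92522222 UMIs. Pairs of ULA libraries shared 9 to 40 barcodes, between 0.167% and 0.543% of the smaller library.

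The intestinal epithelium and the liver both arise from the definitive endoderm, and the transcription factors CDX1 and CDX2 set the intestinal side of that choice. Enterocytes absorb dietary fat: they take up fatty acids and retinol, bind them to FABP1, FABP2 and RBP2, and load triglyceride onto apolipoproteins with the transfer protein MTTP. Secretory cells of the gut release mucins and trefoil factors, and enteroendocrine cells release peptide hormones with chromogranins. Fetal liver and fetal intestine share many of these genes, including FABP1, MTTP and several apolipoproteins.

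Among genes at 100 CPM (counts relative to all UMIs of a class) or more in gut-like cells of day 21, and without the genes of the selection, RBP2, REG1A, CEACAM5 and MUC13 had the 4 largest ratios between gut-like cells and the remaining cells. Promoters of 16 of 24 genes, the 20 leading genes and the 4 gut markers of the selection, were found in the RefSeq table, as 250 bases before to 50 bases after the annotated start (GRCh38.p14). They were searched on both strands for CAAAGTCC, a core of the motif bound by the endodermal nuclear receptor HNF4A. This motif was present in 3 of the 16 promoters, those of RBP2, REG1A and MUC13. It was present in 1.20% of 35116 promoters of that length. Counted by gene, as for the 16, it was present for 1.47% of 27305 genes. The 3 promoters are shown because they hold this motif, so the motif itself chose them among the 16. The RBP2 sequence spans chr3:139476467-139476766 on the minus strand, the REG1A sequence chr2:79120238-79120537 on the plus strand, and the MUC13 sequence chr3:124934702-124935001 on the minus strand. Capitals mark the motif, which reads GGACTTTG where it lies on the opposite strand.
RBP2: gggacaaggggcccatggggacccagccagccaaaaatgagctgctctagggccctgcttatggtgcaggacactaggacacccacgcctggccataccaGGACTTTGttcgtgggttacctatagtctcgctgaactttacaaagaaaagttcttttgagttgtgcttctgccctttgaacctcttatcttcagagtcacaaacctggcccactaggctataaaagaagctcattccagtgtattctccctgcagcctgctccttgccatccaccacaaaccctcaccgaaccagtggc
REG1A: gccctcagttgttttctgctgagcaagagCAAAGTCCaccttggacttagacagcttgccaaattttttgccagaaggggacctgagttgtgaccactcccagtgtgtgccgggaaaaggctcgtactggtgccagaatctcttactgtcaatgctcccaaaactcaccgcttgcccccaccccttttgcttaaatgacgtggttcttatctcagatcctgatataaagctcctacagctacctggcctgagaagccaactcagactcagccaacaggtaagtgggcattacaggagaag
MUC13: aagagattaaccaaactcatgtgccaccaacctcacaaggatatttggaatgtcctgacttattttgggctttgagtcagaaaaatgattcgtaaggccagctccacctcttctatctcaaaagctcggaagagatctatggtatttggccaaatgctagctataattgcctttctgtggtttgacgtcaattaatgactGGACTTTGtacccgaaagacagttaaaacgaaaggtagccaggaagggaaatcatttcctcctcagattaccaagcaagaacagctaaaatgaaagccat
The motif began 150 bases before the start in RBP2, 221 bases before it in REG1A and 50 bases before it in MUC13. A second motif, CCATAAA, bound by CDX factors, was found in the promoters of ANXA10 and FABP1. It was found in 2.54% of all promoters and for 3.16% of genes. AGATAAG, bound by GATA factors, was found in the promoters of RBP2 and REG1A, in 2.68% of all promoters and for 3.27% of genes. A match is a description of letters in the window and shows no binding.

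Gut-like cells were frequent on day 21 and scarce on day 34. Day 21 replicate 1 held 332 gut-like cells among 5902 kept cells (5.63%, exact binomial 95% interval 5.05 to 6.24%). Replicate 2 held 142 of 5335 (2.66%, interval 2.25 to 3.13%) and replicate 3 held 336 of 6299 (5.33%, interval 4.79 to 5.92%). Day 34 replicate 1 held 0 of 4326, which allows a share of up to 0.0693% by a limit of 3 counts (exact binomial upper bound 0.0852%), and day 34 replicate 2 held 36 of 12427 (0.290%, interval 0.203 to 0.401%). The libraries of the 2 days did not overlap, and the lowest day 21 share lay above the highest day 34 share. Day 21 replicate 2 stood lower than the other day 21 libraries. The mean was 4.54% ± 1.63 (SD, n = 3) on day 21 and 0.145% ± 0.205 (SD, n = 2) on day 34. The difference of -4.40 percentage points had a two-sided exact permutation p of 0.2, the smallest that 3 libraries against 2 allow. Intervals and limits cover counting error only.

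**Figure D1:**
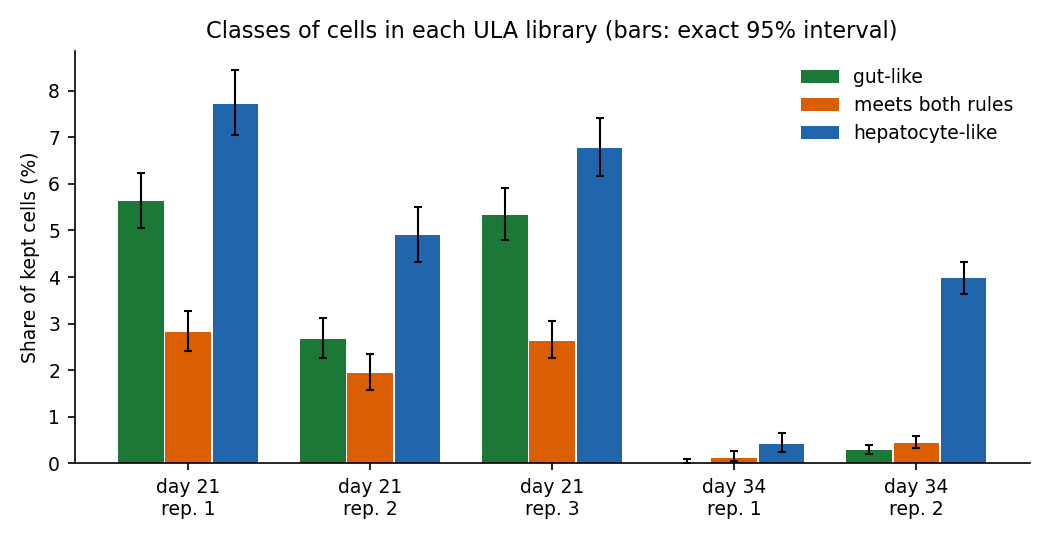
Share of kept cells (%, bars with exact binomial 95% intervals) in each of the 5 ULA libraries for gut-like cells, cells that met both the gut marker and the hepatocyte criterion, and hepatocyte-like cells. Gut-like shares lie between 2.66% and 5.63% in the 3 day 21 libraries and at 0 and 0.290% in the 2 day 34 libraries.

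Depth differed between libraries, with the day 34 libraries on both sides of those of day 21. The median kept cell held 11634, 10084 and 10351 UMIs in the day 21 libraries and 14304.5 and 5959 UMIs in the day 34 libraries. With every cell thinned to 4000 UMIs, and shallower cells left out (297, 255, 909, 83 and 2879 cells in the same order), the gut-like share was 4.89%, 2.46% and 5.32% on day 21 and 0 and 0.272% on day 34. Counting only cells with at most 10% mitochondrial counts gave 4.32%, 2.32% and 2.34% on day 21 and 0 and 0.229% on day 34, and the number of gut-like cells in day 21 replicate 3 fell from 336 to 56. The day 21 libraries lay above the day 34 libraries in each of these counts.

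The cells left out by the hepatocyte criterion decide how large the gut-like population is. Cells that met both criteria numbered 166, 103 and 166 in the day 21 libraries and 5 and 55 in the day 34 libraries, 495 of the 1341 cells with gut markers (36.9%). They made up 33.3%, 42.0% and 33.1% of the cells with gut markers on day 21, against 100% and 60.4% on day 34. The mean was 36.1% ± 5.11 (SD, n = 3) on day 21 and 80.2% ± 28.0 (SD, n = 2) on day 34, with a two-sided exact permutation p of 0.2, again the smallest possible. Day 34 replicate 1, whose 5 cells with gut markers all met both criteria, carries the higher of the 2 day 34 values.

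Neither threshold fell in a gap. Of the 846 gut-like cells, 734 (86.8%) held at least 20 UMIs of the gut markers and 31 (3.66%) held 3 or 4. A gut marker share just inside the threshold, between 0.1% and 0.15%, was seen in 146 gut-like cells (17.3%), and 372 other kept cells with at least 3 UMIs lay just outside it, between 0.05% and 0.1%. On the hepatocyte side, 374 gut-like cells (44.2%) held between 0.2% and 0.3% of their UMIs in the 5 hepatocyte genes, and 209 of the 495 cells meeting both criteria (42.2%) held between 0.3% and 0.4%. Only 25 gut-like cells held no UMI of those genes and 98 (11.6%) held under 0.1%. The 2 populations were therefore neighbours on 1 continuous range of hepatocyte gene content.

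**Figure D2:**
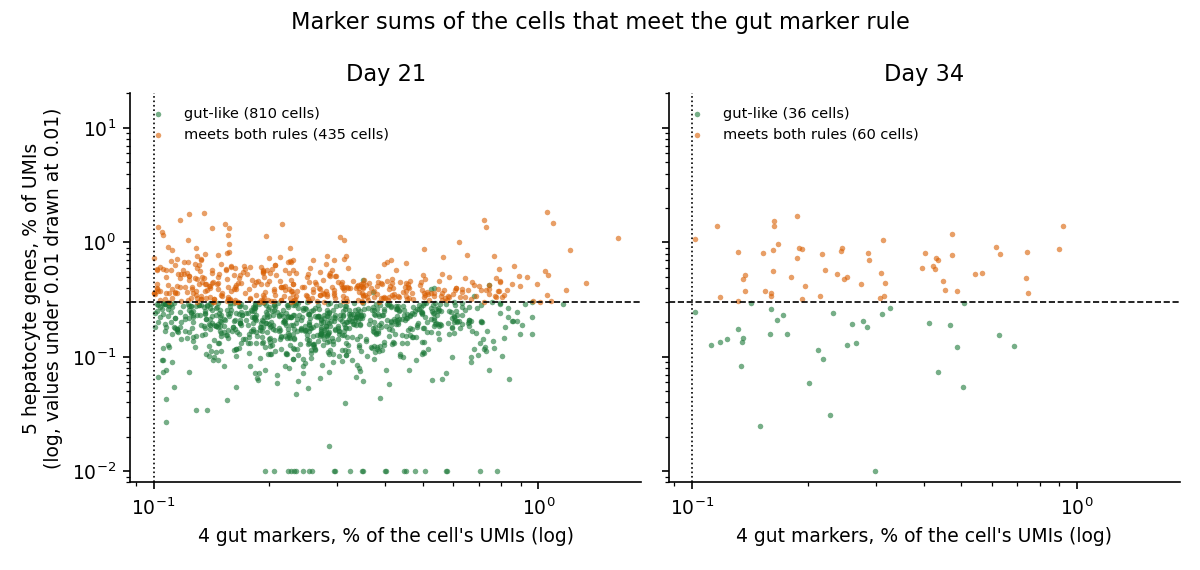
Each point is a cell that met the gut marker criterion, with the share of its UMIs in the 4 gut markers (x axis, log scale) and in the 5 hepatocyte genes (y axis, log scale, values under 0.01% drawn at 0.01%), for day 21 and day 34. The points form 1 cloud across the dashed line at 0.3%, and 6 gut-like cells lie above it because they held under 5 UMIs of the hepatocyte genes.

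The markers that chose the cells were carried by most of them on day 21. TSPAN8, a tetraspanin of epithelial membranes, had a UMI in 99.4%, 97.2% and 99.7% of gut-like cells of the day 21 libraries and in 97.2% on day 34. CDH17, the intestinal cadherin, was detected in 96.7%, 96.5% and 91.4% on day 21 and 91.7% on day 34, and PHGR1 in 88.9%, 93.0% and 93.5% on day 21 and 86.1% on day 34. LGALS4, a galectin of enterocytes, was found in 74.7%, 76.8% and 77.4% on day 21 and in 16.7% on day 34. All 4 markers were present together in 70.8%, 71.8% and 69.0% of gut-like cells on day 21 and in 13.9% on day 34. These shares describe the selection and were not tested. At 4000 UMIs per cell, LGALS4 was detected in 45.2%, 46.9% and 52.3% of gut-like cells on day 21 and 9.68% on day 34. Mesenchymal cells of the same day 21 libraries had it in 0.853%, 0.361% and 0.698%. Those cells held at least 5 UMIs and 0.3% of COL1A1, COL1A2, COL3A1 and DCN together. Cells meeting the gut marker or the hepatocyte criterion were left out of that class, so the selection shaped both sides of this contrast.

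On day 21 the gut-like cells carried intestinal absorptive, surface and secretory genes together with genes shared with hepatocyte-like cells. Levels are given as CPM, a gene's counts relative to all UMIs of a class in a library, are 3′ counts, and are compared between classes for 1 gene, not between genes. Because the markers chose the cells on these counts, the profile is a description without a test. Among 7682 genes with at least 10 CPM in gut-like cells, 2464 (32.1%) were higher than in the remaining cells in every day 21 library. The same count was 16 of 16 for intestinal surface and adhesion genes, 12 of 12 for brush border and digestion genes, 14 of 14 for lipid absorption genes, 9 of 9 for goblet and secretory genes and 19 of 20 for endodermal transcription factors. It was 3 of 5 for intestinal stem and crypt genes, with the other 2 lower in every library. Lists that are not intestinal were high as well, with 7 of 8 for hepatocyte, 11 of 12 for hypoxia and glycolysis and 6 of 7 for ductal genes. It was 1 of 16 for cell cycle genes and 0 of 4 for mesenchymal genes. Listed genes under 10 CPM in gut-like cells did not enter these counts. The full lists held 20 surface, 23 brush border, 17 lipid absorption, 16 goblet and secretory, 26 transcription factor and 14 stem and crypt genes. They held 16 hepatocyte, 13 hypoxia and glycolysis, 12 ductal, 17 cell cycle and 13 mesenchymal genes. The counts therefore describe expressed members and are no test of the lists.

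Genes that bind and export fat and retinol were high in gut-like cells. FABP1, a fatty acid binding protein of liver and intestine (chromosome 2, 88122982 to 88128062, minus strand, GRCh38, GENCODE v44), measured 7027, 10110 and 7268 CPM in gut-like cells of the day 21 libraries, against 1091 ± 139 CPM in hepatocyte-like cells and 101 ± 27.2 CPM in the remaining cells (SD, n = 3). Hepatocyte-like cells met the hepatocyte criterion without the gut marker criterion. RBP2, which binds retinol in enterocytes, measured 333, 297 and 356 CPM in gut-like cells, against 4.24 ± 1.24 CPM in hepatocyte-like cells and 1.54 ± 0.469 CPM in the remaining cells, a ratio of 214 to the latter. MTTP, the triglyceride transfer protein, measured 433 ± 36.7 CPM in gut-like and 168 ± 13.7 CPM in hepatocyte-like cells. The gut-like libraries lay above both other classes for all 3 genes, and the gap to hepatocyte-like cells was widest for RBP2. FABP2, the fatty acid binding protein of the intestine, measured 75.8 ± 41.9 CPM in gut-like and 0.304 CPM in hepatocyte-like cells, and it was present in only 16.6%, 16.9% and 19.3% of gut-like cells. A single cell contributed 29.9%, 34.4% and 33.4% of its UMIs in the 3 libraries. At 4000 UMIs per cell it was detected in 6.77%, 7.69% and 9.33% of gut-like cells and in at most 0.349% of mesenchymal cells of a day 21 library. APOA4, an intestinal apolipoprotein, was likewise found in 16.6%, 18.3% and 15.2% of cells, at 114, 165 and 106 CPM.

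Genes of the intestinal cell surface were higher as well. CEACAM6 measured 598 ± 78.5 CPM in gut-like, 64.4 ± 12.1 CPM in hepatocyte-like and 10.9 ± 7.01 CPM in the remaining cells, and CEACAM5 measured 157 ± 29.0, 2.09 ± 0.624 and 1.01 ± 0.506 CPM in the same order. CEACAM genes are related in sequence, and how the counting treated reads shared between them is not given in the sources used here. MUC13, a membrane mucin, was detected in 58.4%, 64.1% and 63.1% of gut-like cells at 118, 164 and 129 CPM. GPA33, an adhesion antigen of the intestine, measured 31.0 ± 5.11 CPM against 0.613 ± 0.149 CPM in hepatocyte-like cells. The leading genes not described elsewhere were TMEM45B, HSD17B2, CEACAM1, the complement gene C3, S100P, GPX3 and FXYD3, with ratios of gut-like to remaining cells between 30.1 and 82.8.

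Part of the brush border list was present in the gut-like cells. VIL1, which bundles actin in microvilli, measured 147 ± 9.50 CPM in gut-like and 97.5 ± 8.87 CPM in hepatocyte-like cells. MYO1A, the microvillus motor, measured 26.4 ± 1.07 against 1.85 ± 0.891 CPM. MEP1A, a brush border protease, stood at 41.4 ± 6.27 CPM and LCT, the lactase of suckling intestine, at 10.3 ± 2.07 CPM. The peptidase genes ANPEP and DPP4 measured 40.7 ± 16.6 and 51.5 ± 12.4 CPM. Of the 23 listed genes 9 stayed under 1 CPM, among them the sucrase gene SI (0.309 ± 0.373 CPM) and the alkaline phosphatase gene ALPI (0.316 ± 0.274 CPM), while MEP1B and TMIGD1 had no UMI in gut-like cells.

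Some secretory and few gastric genes were present beside the absorptive ones. Of 16 goblet and secretory genes 4 stayed under 1 CPM. That list summed to 3360 to 4820 CPM in gut-like and 3520 to 4420 CPM in hepatocyte-like cells. Of 10 gastric genes 7 stayed under 1 CPM and 3 reached 10 CPM. The trefoil factor gene TFF1 measured 354, 497 and 283 CPM and TFF3 measured 183, 272 and 198 CPM in the gut-like cells of day 21. AGR2, which folds mucins, measured 1835 ± 274 CPM, against 1323 CPM in hepatocyte-like cells. MUC2, the gel-forming mucin of goblet cells, measured 29.8 ± 4.14 CPM. ANXA10, an annexin of the stomach, measured 214, 177 and 301 CPM against 12 ± 6.88 CPM in hepatocyte-like cells, whereas the gastric genes GKN1 and GKN2 had no UMI in gut-like cells and MUC5AC measured 0.0340 CPM. REG1A, a secreted lectin of the gut and pancreas, measured 246, 237 and 438 CPM, with UMIs in 18.7%, 15.5% and 17.9% of the cells and 48%, 60.0% and 15.1% of the UMIs in a single cell. Of 7 Paneth cell genes 4 reached 10 CPM and were higher than in the remaining cells in every library, and the list summed to 427 to 447 CPM in gut-like, 622 to 811 CPM in hepatocyte-like and 23.4 to 63.6 CPM in the remaining cells. Most of that sum was LYZ, the lysozyme gene, at 380 ± 11.9 CPM, while the Paneth cell defensin DEFA5 had no UMI and DEFA6 measured 1.15 ± 1.75 CPM. Of 7 tuft cell genes 6 stayed under 1 CPM.

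Transcription factors of the intestine were present in both gut-like and hepatocyte-like cells, at different levels. CDX1 measured 178, 131 and 137 CPM in gut-like cells and 28.4 CPM in hepatocyte-like cells. CDX2 measured 93.5 ± 13.6 CPM in gut-like, 58.7 CPM in hepatocyte-like and 6.23 CPM in the remaining cells. HNF4A measured 63.5 ± 13.4, 29.6 and 3.07 CPM in the same order. ONECUT2, PROX1 and FOXA1 were lower in gut-like than in hepatocyte-like cells, at 274, 40.0 and 69.9 CPM against 442, 87.8 and 83.5 CPM.

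Liver genes remained in the gut-like cells within the limit the selection set. AFP, the fetal albumin, measured 639 ± 95.7 CPM in gut-like, 1909 ± 250.8 CPM in hepatocyte-like and 46.2 ± 17.0 CPM in the remaining cells, and SERPINA1 measured 977 ± 124, 4030 ± 544 and 83.8 ± 34.6 CPM. Both are genes of the selection and are given as a description. Outside it, the apolipoprotein gene APOA2 measured 1300 ± 187 CPM in gut-like and 1776 CPM in hepatocyte-like cells, and prothrombin (F2) 131 ± 27.8 and 103 CPM. RBP4, the retinol carrier of plasma, was higher in gut-like cells, at 564 ± 3.75 against 92.0 ± 10.9 CPM. ALB was low in both classes, at 7.73 ± 2.35 and 21.5 CPM.

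**Figure D3:**
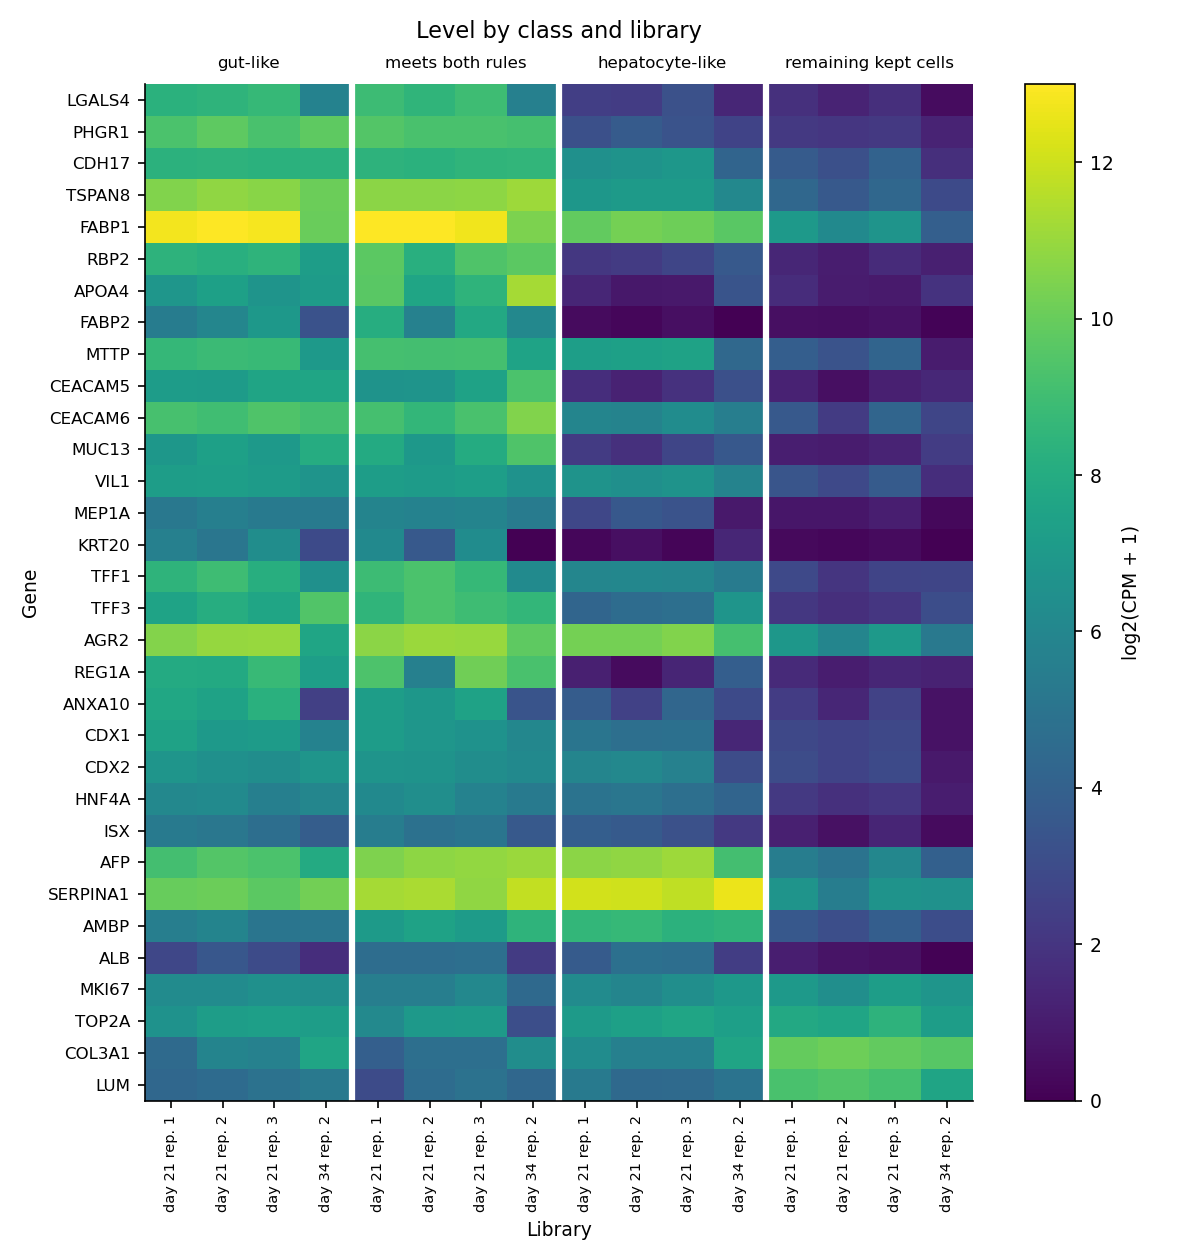
Level of 32 genes as log2(CPM + 1) (colour scale) in gut-like cells, cells meeting both criteria, hepatocyte-like cells and remaining cells, 1 column per library for day 21 replicates 1 to 3 and day 34 replicate 2. RBP2, APOA4, FABP2, CEACAM5 and MUC13 are brighter in the first 2 classes than in hepatocyte-like cells. FABP2 is faint in gut-like cells of day 34 replicate 2, at 8.85 CPM. AFP and SERPINA1 are present in all 3 of these classes.

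Cells that met both criteria were close to gut-like cells on day 21. Across 9621 to 9861 genes the Pearson correlation of log2 CPM between these 2 classes was 0.981 to 0.985 per day 21 library, and 8 to 15 genes lay more than 4-fold apart. Between gut-like and hepatocyte-like cells it was 0.916 to 0.926, with 214 to 277 genes more than 4-fold apart, and between gut-like and remaining cells 0.695 to 0.746. In day 34 replicate 2 there were 36 gut-like cells and 55 cells meeting both criteria. The correlation between these was 0.870, with 618 genes more than 4-fold apart. Between gut-like and hepatocyte-like cells it was 0.842, with 546 genes. The sums of these 3 classes held 452139, 525521 and 4857943 UMIs in the order named. Gut-like sums of the day 21 libraries held 4146841 to 10728070 UMIs, so counting error is larger on day 34 and the days are not compared. These correlations are across genes of 1 library, which are not independent replicates, and the classes share library and genes of the selection. APOA4 and TFF3 were higher in the cells meeting both criteria than in gut-like cells in every day 21 library, APOA4 at 821, 200 and 348 CPM against 114, 165 and 106 CPM and TFF3 at 359, 636 and 501 CPM against 183, 272 and 198 CPM. FABP1 was lower in 2 of the 3 libraries, at 7951, 8227 and 6694 CPM against 7027, 10110 and 7268 CPM. RBP2 stood at 835, 297 and 694 CPM against 333, 297 and 356 CPM, and REG1A at 666, 49.4 and 1163 CPM against 246, 237 and 438 CPM.

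Marker lists of other cell types differed in their sums in gut-like cells of day 21. The 16 hepatocyte genes summed to 2260 to 2890 CPM in gut-like and 178 to 231 CPM in the remaining cells, and the 12 ductal genes to 3660 to 4230 CPM and 1600 to 2360 CPM. The 13 mesenchymal markers summed to 92.9 to 156 CPM in gut-like cells and 2950 to 3340 CPM in the remaining cells, and 9 squamous markers summed to 23.9 to 36.4 CPM and 25.1 to 48.8 CPM. On day 34 the same sums in gut-like cells were 668 and 403 CPM, against 3030 and 2020 CPM in the remaining cells of that library. The median gut-like cell was deeper than the median remaining cell in each library, at 28891, 24813.5 and 23961.5 UMIs on day 21 and 10198.5 UMIs on day 34, against 10639, 9566, 9440 and 5850.5 UMIs. Predicted doublets, the cells with the highest doublet scores, made up 6.33%, 6.34% and 6.25% of gut-like cells on day 21 and 11.1% on day 34 (4 of 36 cells), against 5.27%, 5.89%, 5.7% and 10.7% of all kept cells of these libraries, a rate set by the number of barcodes.

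Within the gut-like population, clustering gave 6 sub-clusters, which were left unnamed. Absorptive genes were high in clusters 3 and 5. In cluster 3 (171 cells) FABP2 stood at 337 CPM against 14.8 CPM in the other gut-like cells, APOA4 at 518 against 25.4 CPM, RBP2 at 1029 against 168 CPM and MUC13 at 355 against 79.7 CPM. The same cluster held NDRG1, a gene induced by low oxygen, at 1279 against 240 CPM, and other hypoxia genes, BNIP3 and EGLN3, among its 50 leading genes. Cluster 5 (35 cells) had a median of 1732 UMIs, and 30 of its cells came from day 21 replicate 3. Its levels were above those of cluster 3 for RBP2 (1813 CPM on 213 UMIs), FABP2 (408.5 CPM on 48 UMIs) and FABP1 (20090 against 12360 CPM) and below them for APOA4 (357.5 CPM on 42 UMIs). Cluster 4 (142 cells) was led by TCN1, GAL and the gastric genes CTSE and ANXA10, the latter at 361 against 208 CPM. Cluster 1 (181 cells) had 9 of the 17 listed cell cycle genes among its 50 leading genes, with TOP2A at 219 against 103 CPM. Cluster 0 (192 cells) had 1 of them, PCNA, at 102 against 47.4 CPM, and the nucleolar protein gene NCL at 814 against 446 CPM. Cluster genes define the clusters and were not tested.

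Cluster 2 (125 cells) held 34 of the 36 day 34 cells and 43, 13 and 35 cells of the day 21 libraries. It was led by genes of other cell types, with COL3A1 at 283 CPM and VIM at 511 CPM, and 40.0% of its cells were predicted doublets, including 20, 8 and 18 of its day 21 cells and 4 of its day 34 cells. Every other cluster had at most 5.71% predicted doublets. The sub-clusters took different shares of each library: cluster 3 made up 20.2%, 40.8% and 13.7% of the gut-like cells of the day 21 libraries, and cluster 0 made up 22%, 14.1% and 29.2%. Day 21 replicate 2 had the largest share of cluster 3 and the smallest gut-like share among the day 21 libraries.

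**Figure D4:**
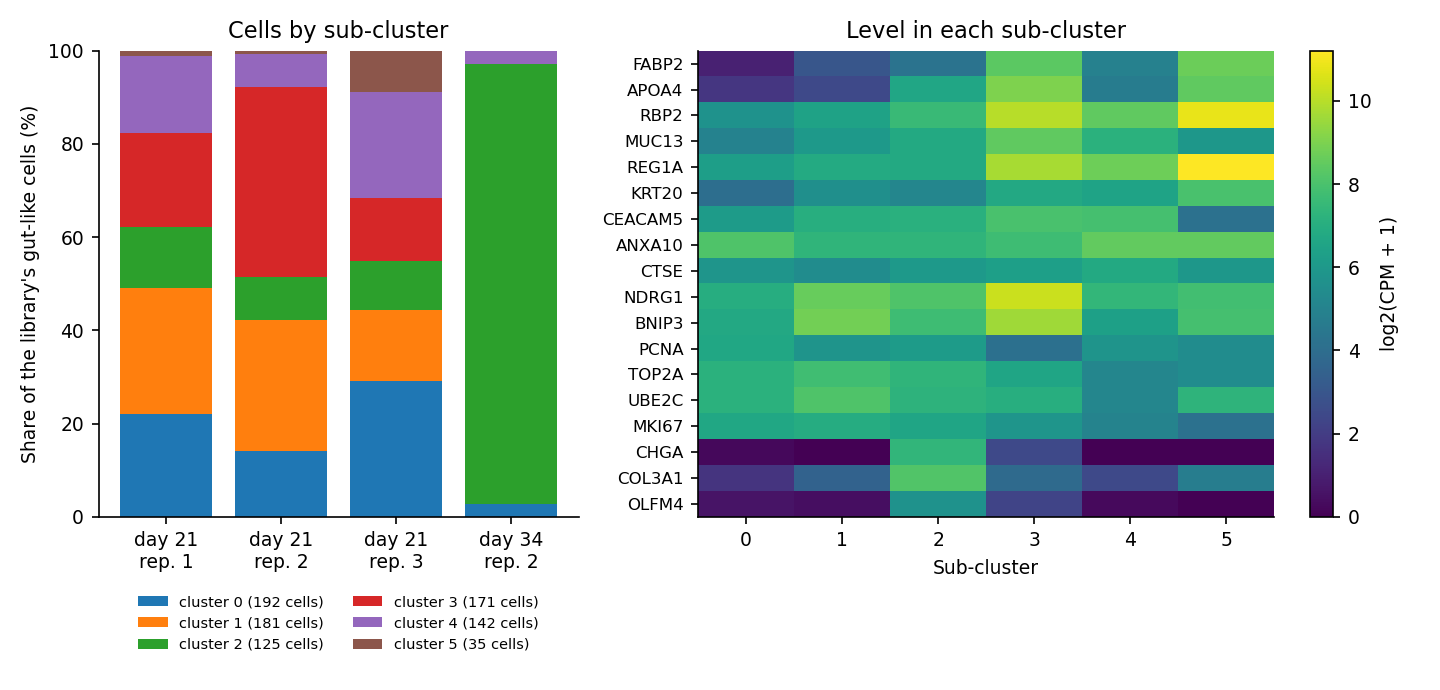
Left, share (%) of the gut-like cells of each library in the 6 sub-clusters. Right, level of 18 genes as log2(CPM + 1) in each sub-cluster. Cluster 2 makes up 94.4% of the gut-like cells of day 34 replicate 2 and 9.15% to 13% in the day 21 libraries.

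The day comparison within gut-like cells set the 3 day 21 libraries against the 36 cells of day 34 replicate 2, the only day 34 library with gut-like cells. It was added after the data were seen, because no day 34 library reached the planned minimum of 50 cells. The lone library is assumed to vary like the day 21 libraries, and 34 of its 36 cells fell in cluster 2, so the day and the make-up of the population cannot be told apart. The summed gut-like counts were 24671958 UMIs on day 21 and 452139 UMIs on day 34. Of 14206 genes tested, edgeR called 375 higher (2.64%) and 363 lower (2.56%) on day 34 at an adjusted p under 0.05, and the median log2 change of all genes was -0.09. Without day 21 replicate 2 the number called rose from 738 to 1191. The filter on low counts left 15 of 17 lipid absorption genes, 13 of 16 goblet and secretory genes, 20 of 20 surface genes, 14 of 23 brush border genes, 24 of 26 transcription factors and 22 of 23 inflammatory genes. It also admitted genes seen only on day 34, so the counts below describe the lists and carry no test of them.

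Some genes of fat absorption fell by day 34. Of 15 tested, 4 fell and 0 rose, with a median log2 change of -0.86. FABP1 went from 7027, 10110 and 7268 CPM on day 21 to 1042 CPM on day 34, a log2 change of -3.44 ± 0.407 (SE, edgeR adjusted p = 0.000156). MTTP went from 397, 470 and 432 CPM to 126 CPM, a log2 change of -2.25 (edgeR adjusted p = 0.000715), and RBP2 from 333, 297 and 356 CPM to 150 CPM, a log2 change of -1.60 (edgeR adjusted p = 0.00535). The day 34 value lay below every day 21 value for each of these genes. FABP2, the fourth, was found in 3 day 34 cells with 4 UMIs in all, and its CPM was 8.81 times lower (counting interval 3.44 to 32.4). APOA4 did not pass, at 142 CPM on day 34 between the day 21 values of 106 and 165 CPM. It had UMIs in 8 day 34 cells, with 53.1% of them in a single cell, against 34.2%, 44.5% and 17.9% in the day 21 libraries, so its level rests largely on 1 cell. Without predicted doublets the list again had 4 genes lower and 0 higher. With the cells that met both criteria added, 3 of its genes were higher and 3 lower, with a median log2 change of -0.19, so the counts in each direction depended on the hepatocyte criterion.

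Among goblet and secretory genes, 4 rose and 4 fell of 13 tested. AGR2 went from 1521, 1960 and 2024 CPM to 201 CPM (log2 change -3.66 ± 0.372, edgeR adjusted p = 3.91e-05) and was detected in 18 of the 36 day 34 cells. TFF1 went from 354, 497 and 283 CPM to 90.7 CPM, TFF2 from 44.5, 63.9 and 44.9 CPM to 6.63 CPM and MUC2 from 30.7, 25.3 and 33.5 CPM to 6.63 CPM. In the other direction, MUC1, a membrane mucin, went from 62.2, 73.3 and 67.7 CPM to 392 CPM (log2 change 2.06, edgeR adjusted p = 0.000107). TFF3 went from 183, 272 and 198 CPM to 703 CPM, with 63.8% of its day 34 UMIs in a single cell, and FCGBP, a mucus protein, from 1.49, 1.93 and 4.49 CPM to 184 CPM, with 75.9% in a single cell. SPDEF, the goblet cell factor, rose on 6 UMIs of day 34 and was called in 2 of the 3 fits that left out a day 21 library. DESeq2 did not call MUC2 (adjusted p = 0.0692). With the cells that met both criteria added, 2 secretory genes rose and 5 fell.

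Fewer genes of the other intestinal lists passed the test. Of 20 surface genes, CLDN4 rose, from 329, 196 and 241 CPM to 781 CPM, and TM4SF4 fell, from 151, 163 and 164 CPM to 42.0 CPM. Of 14 brush border genes tested, CA4 rose and MYO1A and KRT20 fell, MYO1A without a call by DESeq2 (adjusted p = 0.105). VIL1 measured 149, 156 and 137 CPM on day 21 and 104 CPM on day 34 and MEP1A 35.9, 48.2 and 40.1 CPM and 39.8 CPM, and neither passed. Of 24 transcription factors, CDX1 fell from 178, 131 and 137 CPM to 53.1 CPM (log2 change -1.95 ± 0.344, edgeR adjusted p = 0.00442), and FOXA1 and ONECUT2 fell. CDX2 and HNF4A did not pass, at 93.5 ± 13.6 and 63.5 ± 13.4 CPM on day 21 and 111 and 61.9 CPM on day 34. With the cells that met both criteria added, the higher and lower counts were 5 and 2 for surface genes, 1 and 5 for brush border genes and 1 and 7 for transcription factors.

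Inflammatory genes were the list with the most calls. Of 22 tested, 14 rose and 0 fell, with a median log2 change of 2.88, and without predicted doublets the count was again 14 and 0. CXCL2, a neutrophil chemokine, went from 20.3, 11.3 and 16.4 CPM to 294 CPM (log2 change 3.70 ± 0.278, edgeR adjusted p = 2.75e-06). CXCL5 went from 15.7, 21.7 and 16.6 CPM to 212 CPM and CCL20 from 52.1, 82.0 and 34.9 CPM to 414 CPM. NFKBIA, the inhibitor that NF-kB induces, went from 49.96, 59.1 and 43.0 CPM to 232 CPM and had a UMI in 30 of the 36 day 34 cells. CXCL1 and DUOX2 each had a UMI in 18 of the 36 cells. At 4000 UMIs per cell the 2 genes were detected in 25.8% and 35.5% of gut-like cells, with 31 of the 36 cells deep enough. Cells of that library meeting both criteria had them in 37.3% and 35.3%, so the 2 genes were not particular to gut-like cells. The shares were 20.7% and 5.51% in hepatocyte-like and 2.28% and 0.623% in mesenchymal cells of that library. The acute-phase genes SAA1 and SAA2, near-identical copies between which reads could be split, were concentrated instead, with 82.1% and 79.2% of their day 34 UMIs in a single cell. DESeq2 called 11 of the 14 and not TNFAIP3, BIRC3 or LCN2. The 23 listed inflammatory genes summed to between 1030 and 1430 CPM in gut-like cells on day 21 and to 4610 CPM on day 34. The remaining cells of the same libraries had at most 844 CPM and 782 CPM, and hepatocyte-like cells of day 21 had 823 to 875 CPM. B2M made up much of the sum, at 526 to 1235 CPM across the sub-clusters. The list's median difference from the day effect of hepatocyte-like cells was -0.02 on the log2 scale. By that median the rise was not particular to gut-like cells. Of 11 genes of stress and dissociation, ATF3, from 11.7, 9.89 and 11.0 CPM to 139 CPM, and JUN, from 118, 51.6 and 108 CPM to 515 CPM, also rose, JUN without a call by DESeq2 (adjusted p = 0.0510).

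Markers of other cell types moved in both directions in the same comparison. Of 16 hepatocyte genes 11 passed the filter, and 3 fell and 0 rose, with a median log2 change of -0.84. Of 9 squamous genes 5 passed the filter and 4 rose, and of 13 mesenchymal genes 13 passed it and 5 rose, with 0 lower in either list and medians of 2.19 and 1.74 on the log2 scale. DESeq2 called 3 squamous and 4 mesenchymal genes, and without predicted doublets 2 and 5 rose. KRT13, a keratin of stratified epithelium, had 0 UMIs on day 21 and 119 CPM on day 34 (54 UMIs in 13 cells, 50% of them in a single cell), at least 982-fold higher against a limit of 3 UMIs over the day 21 cells. KRT5, a basal keratin, went from 0, 0 and 1.02 CPM to 148 CPM, with UMIs in 12 of the 36 cells, and was not called by DESeq2. KRT17, a keratin of basal and stressed epithelium, went from 2.33, 0 and 0.204 CPM to 445 CPM, with UMIs in 24 of the 36 cells. The filter on low counts admitted genes such as KRT13 through day 34 alone, and such genes could not be called lower. The squamous counts and median therefore carry no test of that list. Keratin UMIs were also frequent in mesenchymal cells of the same library. At 4000 UMIs per cell KRT5 was found in 19.4% of gut-like and 26.7% of mesenchymal cells of day 34 replicate 2, KRT17 in 45.2% and 47.5%, and KRT13 in 22.6% and 15%. Without thinning the shares were 33.3% and 31.0% for KRT5, 66.7% and 53.5% for KRT17 and 36.1% and 18.3% for KRT13, at median depths of 10198.5 and 5177 UMIs. At equal depth the KRT5 and KRT17 shares of gut-like cells, on 31 cells, were not above those of mesenchymal cells. Whether these UMIs are expression of gut-like cells was not tested. The collagen gene COL3A1 went from 21.7, 58.1 and 50.7 CPM to 199 CPM and was not called by DESeq2 (adjusted p = 0.289). Within cluster 2 alone, where no test was made, KRT17 stood at 22.5, 0 and 1.59 CPM on day 21 and 453 CPM on day 34, COL3A1 at 173, 500 and 347 CPM and 205 CPM, and FABP1 at 4425, 4931 and 4908 CPM and 1054 CPM. The part of other cells' RNA in these day differences was not tested.

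Several other genes had large day differences by the same test. OLFM4, a secreted protein of intestinal crypts, went from 1.40, 0.482 and 0.919 CPM to 356 CPM (log2 change 7.93 ± 0.313, edgeR adjusted p = 3.15e-09). It had a UMI in 19 of the 36 day 34 cells, with 46.6% of its UMIs in a single cell. At 4000 UMIs per cell it was detected in 41.9% of gut-like cells and 25.5% of cells meeting both criteria in that library. The shares were 13.4% in hepatocyte-like and 0.519% in mesenchymal cells. Without thinning they were 52.8%, 38.2%, 19.8% and 0.626% in the same order. IGFL2 and SPRR2F, the latter a protein of cornified epithelium, were each found in 11 day 34 cells, at 73.0 and 81.8 CPM, against 0.111 and 0.177 CPM on day 21. At 4000 UMIs per cell they were found in 25.8% and 22.6% of gut-like cells and in 11.8% and 9.24% of mesenchymal cells of day 34 replicate 2. CCL4L2, a chemokine with near-identical copies, was at least 691-fold higher, with 57.9% of its UMIs in a single cell. GPNMB stood at 88.5 CPM on day 34 against 0.344 CPM on day 21. Among genes that fell, the calcium buffer CALB1 went from 110, 67.0 and 90.6 CPM to 0 UMIs, at least 14.3-fold lower. The transporter ABCG2 was at least 3.41-fold lower and the dioxygenase-like gene HPDL at least 3.28-fold lower, since a limit of 3 UMIs on day 34 equals 6.64 CPM. ANXA10 went from 214, 177 and 301 CPM to 4.42 CPM on 2 UMIs, a ratio of 54.8 (counting interval 15.2 to 452), and prothrombin (F2) also had 2 UMIs on day 34, a ratio of 28.2 (counting interval 7.80 to 233). DMBT1, a mucosal scavenger receptor, PCAT14, a long noncoding RNA, the cochaperone BAG2 and CTH each had 1 UMI on day 34. Their ratios were 37.0 (counting interval 6.63 to 1460), 16.5 (2.95 to 651), 12.6 (2.25 to 497) and 10.1 (1.80 to 399), and KRT20, with 3 UMIs, had a ratio of 9.06 (3.09 to 44). DESeq2 did not call ABCG2, HPDL, PCAT14, BAG2 or CTH, with adjusted p between 0.0512 and 0.128.

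Cell cycle and hypoxia genes fell in part. Of 17 cell cycle genes, 5 were lower on day 34 and 0 higher, among them CCNB1, from 124, 160 and 142 CPM to 81.8 CPM. Both DESeq2 and the fit without predicted doublets called 2 cell cycle genes lower, and with the cells that met both criteria added 10 were lower. Of 13 hypoxia and glycolysis genes, 5 were lower and 0 higher, with a median log2 change of -1.55. BNIP3 went from 272, 756 and 230 CPM to 92.9 CPM and LDHA from 1516, 2653 and 1657 CPM to 898 CPM. DESeq2 called 2 of the 13 genes, LDHA among them, and not BNIP3 (adjusted p = 0.166). Day 21 replicate 2 was the highest library for both hypoxia genes and held the largest share of cluster 3.

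**Figure D5:**
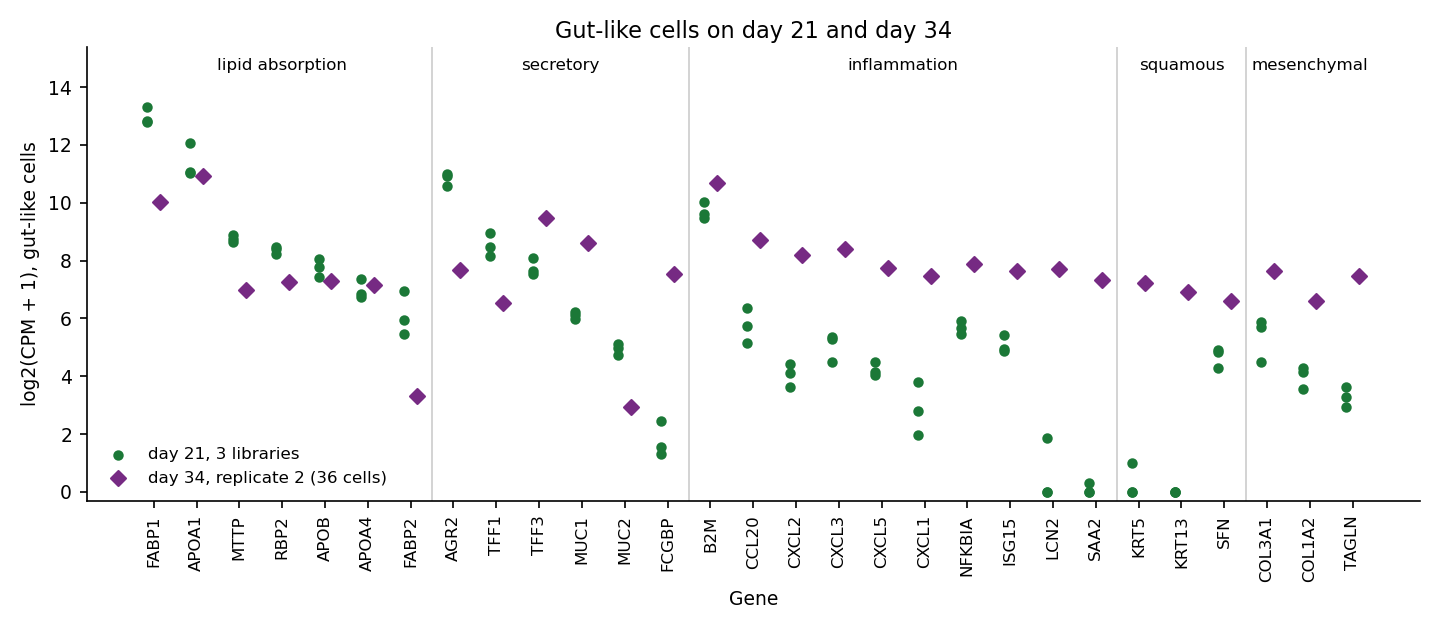
Level as log2(CPM + 1) of 29 genes of 5 lists in the gut-like cells, with 1 circle per day 21 library and a diamond for day 34 replicate 2 (36 cells). FABP1, MTTP and AGR2 lie lower on day 34 than in every day 21 library, and CXCL2, MUC1 and NFKBIA lie higher.

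To see where the day difference of gut-like cells departed from that of hepatocyte-like cells, the difference between the 2 day effects was tested with the library as a block. Day 34 was 1 library, replicate 2, for both classes, so the spread comes from the day 21 libraries alone. Of 16163 genes, 110 (0.681%) had a higher and 114 (0.705%) a lower day effect in gut-like cells by edgeR at an adjusted p under 0.05. The number called rose from 224 to 395 without day 21 replicate 1 and to 360 without day 21 replicate 2. Of 7 squamous genes tested 1 had a lower day effect, and of 23 inflammatory genes 1 had a higher and 3 a lower day effect, with a median difference of -0.02 on the log2 scale. Of 16 lipid absorption genes, 1 had a higher and 3 a lower day effect, and of 15 goblet and secretory genes 2 had a higher and 5 a lower one. Of 15 brush border genes, 3 had a higher and 1 a lower day effect. These list counts moved with the setting. Without day 21 replicate 2 the higher and lower counts were 4 and 3 for lipid absorption and 3 and 2 for inflammatory genes, without predicted doublets lipid absorption had 3 and 3, and by DESeq2 goblet and secretory genes had 0 and 3. Of 16 enteroendocrine genes 11 were tested, and 5 (CHGA, NEUROD1, INSM1, SCG2 and PAX4) had a lower day effect in gut-like cells, INSM1 and PAX4 with 0 UMIs in gut-like cells on day 34. DESeq2 gave no adjusted p for that list. The CHGA UMIs came from 2, 3 and 3 gut-like cells of the day 21 libraries and from 1 cell on day 34. A single cell held 92.9%, 94.9% and 96.3% of them in the day 21 libraries. The enteroendocrine counts therefore rest on very few cells for CHGA, and the cells behind the other genes of the list were not counted. In hepatocyte-like cells CHGA went from 0.191, 0 and 0.235 CPM on day 21 to 88.3 CPM on day 34. It was detected in 2.63% of those day 34 cells. The filter on low counts could admit genes through 1 class and day, so the list counts carry no test of the lists. CALB1 measured 98.7, 91.7 and 93.7 CPM in hepatocyte-like cells on day 21 and 23.1 CPM on day 34, and ANXA10 measured 12.8, 4.79 and 18.5 CPM and 6.59 CPM. DESeq2 did not call the CALB1 difference (adjusted p = 0.0933). DMBT1 moved the other way there, from 0.287, 1.86 and 2.35 CPM to 9.88 CPM.

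Summed over all kept cells of each library, many genes of the absorptive and surface lists were lower on day 34. In such sums fewer cells of a type and less RNA per cell cannot be told apart. Of 22261 genes tested over the 5 libraries, edgeR called 1876 higher (8.43%) and 1600 lower (7.19%) on day 34, and the median of all genes was 0.01 on the log2 scale. Lower calls were made for 13 of 17 brush border genes, 9 of 16 lipid absorption genes, 9 of 20 surface genes and 12 of 26 transcription factors, with 1 transcription factor higher. The list medians were -3.08, -2.51, -2.37 and -1.92 on the log2 scale. Other lists moved in the same sums: 7 of 15 hepatocyte genes were lower (median -2.11), and 9 of 9 squamous genes (median 4.39) and 5 of 13 mesenchymal genes (median 0.89) were higher. Among intestinal lists, 5 of 15 goblet and secretory genes were lower and 1 higher, and 3 of 14 enteroendocrine genes were higher and 0 lower. CDX1 measured 36.5, 19.4 and 29.2 CPM on day 21 and 0.488 and 1.24 CPM on day 34 (log2 change -5.14 ± 0.485, edgeR adjusted p = 0.00174). SLC51A, a bile acid exporter of enterocytes, measured 16.2, 13.8 and 15.1 CPM against 0.334 and 0.395 CPM (log2 change -5.49 ± 0.243, edgeR adjusted p = 0.000217). MUC13, at 27.2, 16.1 and 31.9 CPM against 0.360 and 9.66 CPM, and APOA4, at 54.4, 19.4 and 33.5 CPM against 0.0771 and 17.9 CPM, did not pass. The calls depended on single libraries: over all genes they fell from 3476 to 773, 1430 and 697 without day 21 replicates 1, 2 and 3 and rose to 7166 without day 34 replicate 2, and for lipid absorption genes the lower calls were 1, 4 and 1 without the day 21 replicates and 12 without day 34 replicate 1 or without day 34 replicate 2.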

How the data were processed

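The deposited matrices hold counts of UMIs for each gene in each barcode, not normalized, which the authors made with bcl2fastq and Cell Ranger 3.0.2 against GRCh38 and handled with Scanpy, per the submitters' processing notes. The headers of the ULA files give the software version 3.0.2 without a program name. No file of cell types was used, so classes rest on the marker sums given in the report. The members and gene lists were chosen with earlier results of these data known. Cells were kept with at least 500 genes and at most 20% mitochondrial counts (Python 3.11.15, scanpy 1.11.5). The automatic threshold of the doublet caller marked at most 0.0462% of cells in 4 of the 5 libraries and 16.6% in day 34 replicate 2, so in every library the cells with the highest scores, 0.8% per 1000 barcodes, were taken as predicted doublets. They were kept, and left out only in an alternative.

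Counts were summed per library and class and tested with edgeR 4.0.16 (quasi-likelihood, TMM, filterByExpr, Benjamini-Hochberg over all genes tested, R 4.3.3). DESeq2 1.42.0 was an alternative. Shares were compared by a two-sided exact permutation test over libraries. Sub-clusters used 2000 variable genes, 30 components, 15 neighbours and Leiden resolution 0.5, without integration. The planned fits within gut-like cells asked for 50 cells per library. No day 34 library had that many, so 30 cells were asked for instead, after the data were seen. The whole-library comparison was also added then. Genes were named by a rule. Profile genes were the 20 with the largest ratio of gut-like to remaining cells at 100 CPM or more. Day genes were the 12 largest rises and 12 largest falls among called genes whose libraries did not overlap, at 20 CPM or more on 1 day, without the 9 genes of the selection. For the difference from hepatocyte-like cells the 5 largest in each direction were taken. A gene that the rule named is not reported here. Listed genes were described beside them. Replicate numbers were shared by the days, but same-numbered libraries did not deviate together. The statistical code was tested on simulated data. Positions come from GENCODE v44 and promoters from RefSeq.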

Additional observations from a re-analysis of the deposited data

Results flagged for a closer look

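These genes stood out because their day difference in gut-like cells differed from that in hepatocyte-like cells, by edgeR's test of the difference itself (quasi-likelihood, Benjamini-Hochberg over 16163 genes). Day 34 was 1 library for both classes, so the spread comes from the day 21 libraries alone. FCGBP (adjusted p = 2.26e-05), LCN15 (adjusted p = 5.49e-06), CA3 (adjusted p = 5.44e-05) and CA4 (adjusted p = 0.000112) had the higher day effect (day 34 over day 21) in gut-like cells by edgeR, with log2 differences between the 2 day effects of 7.79, 7.42, 7.05 and 5.22. For LCN15 the day effect was 1.10 on the log2 scale in gut-like and -6.13 in hepatocyte-like cells. FCGBP had 75.9% and LCN15 97.3% of its day 34 gut-like UMIs in a single cell, and CA3 had 51.6% and CA4 43.8%. In hepatocyte-like cells of day 34, on 4857943 UMIs, FCGBP and CA3 each measured 0.206 CPM and LCN15 0.618 CPM. The sizes of their differences therefore rest on very few counts there.

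A lower day effect in gut-like cells by edgeR was found for CALB1 (adjusted p = 0.0371), DMBT1 (adjusted p = 1.36e-06), KRT20 (adjusted p = 0.00295), CHGA (adjusted p = 1.73e-07) and ANXA10 (adjusted p = 0.00164). DMBT1, KRT20, CHGA and ANXA10 had log2 differences between the day effects of -8.25, -6.02, -5.99 and -5.05. In gut-like cells of day 34 DMBT1, KRT20 and ANXA10 had 1, 3 and 2 UMIs. KRT20 measured 0.191, 0.464 and 0.118 CPM in hepatocyte-like cells on day 21 and 1.65 CPM on day 34. The sizes of the differences of these 3 genes therefore rest on very few counts. CHGA had positive day effects in both classes, 2.57 in gut-like and 8.67 in hepatocyte-like cells, and stood at 184 CPM in gut-like cells on day 34. CALB1 had 0 UMIs in gut-like cells on day 34, so its fitted difference is no bound. DESeq2 called LCN15 and ANXA10 but not CALB1 (adjusted p = 0.0933), and it gave no adjusted p for FCGBP, CA3, CA4, DMBT1, KRT20 and CHGA. All 83 CHGA UMIs of day 34 gut-like cells came from 1 cell, and on day 21 single cells held 92.9%, 94.9% and 96.3% of them. In hepatocyte-like cells CHGA measured 0.191, 0 and 0.235 CPM on day 21 and 88.3 CPM on day 34.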

How the results depend on the processing

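The gut-like share was lower on day 34 under all 14 alternatives, planned or added, with differences between -2.88 and -6.58 percentage points, and the share of cells meeting both criteria was higher under all 8, with differences between 24.3 and 63.9 points. The planned fits within gut-like cells and their alternatives were not run, since no day 34 library had 50 gut-like cells, and everything below was chosen after seeing the data. For gut-like cells 738 genes were called, 1369 without a filter on low counts, 1481 with no exclusion of cells meeting the hepatocyte criterion, and 890 to 1191 when a day 21 library was left out. For the difference from hepatocyte-like cells 224 genes were called, 113 by DESeq2, and 288 to 395 when a day 21 library was left out. For whole libraries 3476 genes were called, and 697 to 7166 when 1 library was left out. With the replicate block over numbers 1 and 2, edgeR called 2 genes there, with 4407 at an unadjusted p under 0.05. The deviations of same-numbered libraries correlated at -0.165 and -0.269, so the numbers were not taken as pairs. No paired analysis was possible within gut-like cells because only 1 day 34 library entered. The cause of these changes was not tested. Another scaling (RLE) moved the median log2 change by 0.0106 in gut-like cells. CPM, count limits and ratios rest on plain UMI totals, whereas fitted log2 changes use TMM scaling, so the 2 differ in size. By pooled CPM AGR2 was 8.92 times lower and OLFM4 338 times higher on day 34. Their fitted log2 changes were -3.66 and 7.93, so the fall reads smaller and the rise larger in CPM. Depth limits the 36 day 34 cells most, where 3 UMIs equal 6.64 CPM.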

Other observations

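Day 34 replicate 1 held no gut-like cell, but 5 of its cells met both the gut marker and the hepatocyte criterion. They held 18216, 11702, 5397, 10626 and 3076 UMIs, and none had more than 2 UMIs of FABP1. AFP was detected in 1 of them, with 15 UMIs, and the same cell held 277 UMIs of CHGA, a chromogranin of endocrine cells. In the 14 shaker libraries, which differ from the ULA libraries in culture, age, treatment and the number of genes listed, the share of cells meeting the gut-like criteria ranged from 0.0833% to 9.13%, and no comparison was made.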
